A study of Mus musculus with 4 samples.

Results

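The gene Bhlha15 encodes Mist1, a basic helix-loop-helix transcription factor of serous secretory cells. The peaks of Ptf1a and of c-Myc around it were examined in pancreas of Ela1-Myc mice. A peak was counted at the locus when its midpoint lay in the 100 kb from 144900000 to 145000000 on chromosome 5 (mouse build mm9). By this rule the locus held 15 of the 23096 peaks of both lists, 9 of 17632 in the Ptf1a list and 6 of 5464 in the c-Myc list. The locus was chosen by its peaks, with their positions, scores and overlaps in both lists known. Its counts, scores and overlaps are therefore given as descriptions, with no test.

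The lists came from chromatin immunoprecipitation followed by sequencing (ChIP-seq) in mice of 8 weeks. All animals were Ela1-Myc mice, in which acinar cells express a c-Myc transgene from the promoter of the elastase 1 gene. Ptf1a was profiled in 1 mouse, and c-Myc in pooled material of 3 mice. The inputs, from 5 mice for Ptf1a and from 3 mice for c-Myc, were not analysed here. Mice without the transgene were not analysed here, so the lists describe a pancreas with added c-Myc. Whole pancreas was used, and the lists do not tell in which of its cells a site was bound. With 1 library per factor no value has a replicate error. The lists hold no read counts, so the depth of both libraries is unknown and a peak missing from a list may have been missed by it.

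Acinar cells make and store the digestive enzymes. Ptf1a drives the genes of these enzymes as part of the PTF1 complex, with a ubiquitous E protein and Rbpj or its acinar relative Rbpjl. The complex reads a bipartite site, an E-box next to a box read by Rbpj or Rbpjl. Mist1 acts later, in the maturation of the secretory apparatus: acinar cells that lack it have disordered granules and lose their polarity, and genes of granule traffic such as Rab26 and Rab3d are among its known targets. c-Myc, with its partner Max, reads the E-box CACGTG and promotes growth and proliferation. The series title places c-Myc in the maturation of acinar cells, and the question here is where the peaks of both factors stood around a gene of that maturation.

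In the order of genes along the chromosome given by RefSeq (GRCm38.p6), Bhlha15 stands between Lmtk2, which encodes a membrane kinase, and Tecpr1, which encodes a protein of autophagy. Bhlha15 and Lmtk2 are read on the forward strand and Tecpr1 on the reverse strand. On mm9 the start of Bhlha15 is known here only to the nearest kb, near 144.952 Mb, so distances from it are given in whole kb. In RefSeq Lmtk2 is 87848 bp long and Tecpr1 29174 bp, so peaks before or after Bhlha15 may lie inside these genes. Which peaks lie inside Lmtk2 or Tecpr1 on mm9 was not analysed here.

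The 250 bases before the start of Bhlha15 are shown because the nearest peaks of both lists lay within about 1 kb of that start. They are from RefSeq, build GRCm38.p6, chr5:144190036-144190285, forward strand, 5′ to 3′. Capitals mark every E-box, CANNTG.
Bhlha15: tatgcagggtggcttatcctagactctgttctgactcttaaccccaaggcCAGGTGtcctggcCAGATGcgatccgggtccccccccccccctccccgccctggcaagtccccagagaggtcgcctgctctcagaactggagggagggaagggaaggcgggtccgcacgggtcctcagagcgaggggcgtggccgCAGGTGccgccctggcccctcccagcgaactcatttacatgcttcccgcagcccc
The stretch held 3 E-boxes, which began 200, 187 and 55 bases before the start. All 3 were of the form CANCTG when read on the reverse strand, the form of the E-box in PTF1 sites. CANCTG is a subset of CANNTG, so these are the same 3 places. Of 32807 promoter stretches of the same length, 44.8% held CANCTG on either strand and 7.28% held it at 3 or more places. CANNTG was in 66.2% of them, and 12.2% held 3 or more.

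Other letters searched on both strands were not in this stretch. TGGGAA, the core read by Rbpj and Rbpjl, was in 21.6% of the 32807 stretches, and the overlapping TTTCCC was in 21.9%. The E-box of c-Myc and Max, CACGTG, was in 6.02% and CAGCTG in 13.0%. TCAAGG, a core read by Nr5a2, a nuclear receptor of acinar cells, was in 4091 of the 32807. Of the bases in the Bhlha15 stretch 66.8% were G or C, against a median of 52.4%, and 14.2% of stretches were at least as rich. These matches describe letters in a stretch read from GRCm38.p6. On mm9 the nearest Ptf1a peak ended at 144951242 and the nearest Myc peak at 144951699, both before the approximate start near 144.952 Mb. The E-boxes are therefore not placed under either peak here. With the start known only to the nearest kb, whether a peak reaches into the stretch was not tested.

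A list of 20 acinar regulators and genes of the Mist1 secretory programme was set beside it, and 13 of the 20 matched the promoter table. Some genes have several starts, and a gene was counted when any of its listed promoters held the letters, for the list as for all 26987 genes of the table. CANCTG stood in 9 of the 13, against 48.2% of all genes, among them Rbpjl, Nr5a2, the secretory stress factor Xbp1 and the gap junction gene Gjb1. TGGGAA stood in 5, against 24.1% of all genes, those of Ptf1a, Rbpjl, Rbpj, Xbp1 and the coat protein gene Copz2. The overlapping TTTCCC stood in 3 of the 13 (23.1%), against 24.4% of all genes. TCAAGG stood in 4 of the 13 (30.8%), against 14.1%. Neither CACGTG nor CAGCTG stood in any of the 13, against 6.86% and 14.7% of all genes. With 13 genes these counts are a description only.

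The peaks at Bhlha15 fell into a near and a far group before the gene, with a few scattered peaks after it. The score is the peak caller's own value for each peak in the deposited lists, on a scale that no source used here states, and it is used only within a list. In the near group the Ptf1a list had 4 peaks between 144943761 and 144951242, a span of 7.48 kb. The Myc list had 3 there, between 144943354 and 144951699. How common groups of this size were depended on the gap up to which neighbouring peaks of a list were joined. With the gap used here, 20.6% of all Ptf1a peaks lay in groups of 4 or more. The share of all Myc peaks in groups of 3 or more was 10.9%. With a gap of at most 5 kb both near groups kept the same size and ends, and these shares were 7.43% for Ptf1a and 4.63% for Myc. In the far group the Ptf1a list had 3 peaks and the Myc list 2, at 28 to 32 kb before the start. Between the groups lay 19.3 kb without a Ptf1a peak and 18.7 kb without a Myc peak.

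**Figure D1:**
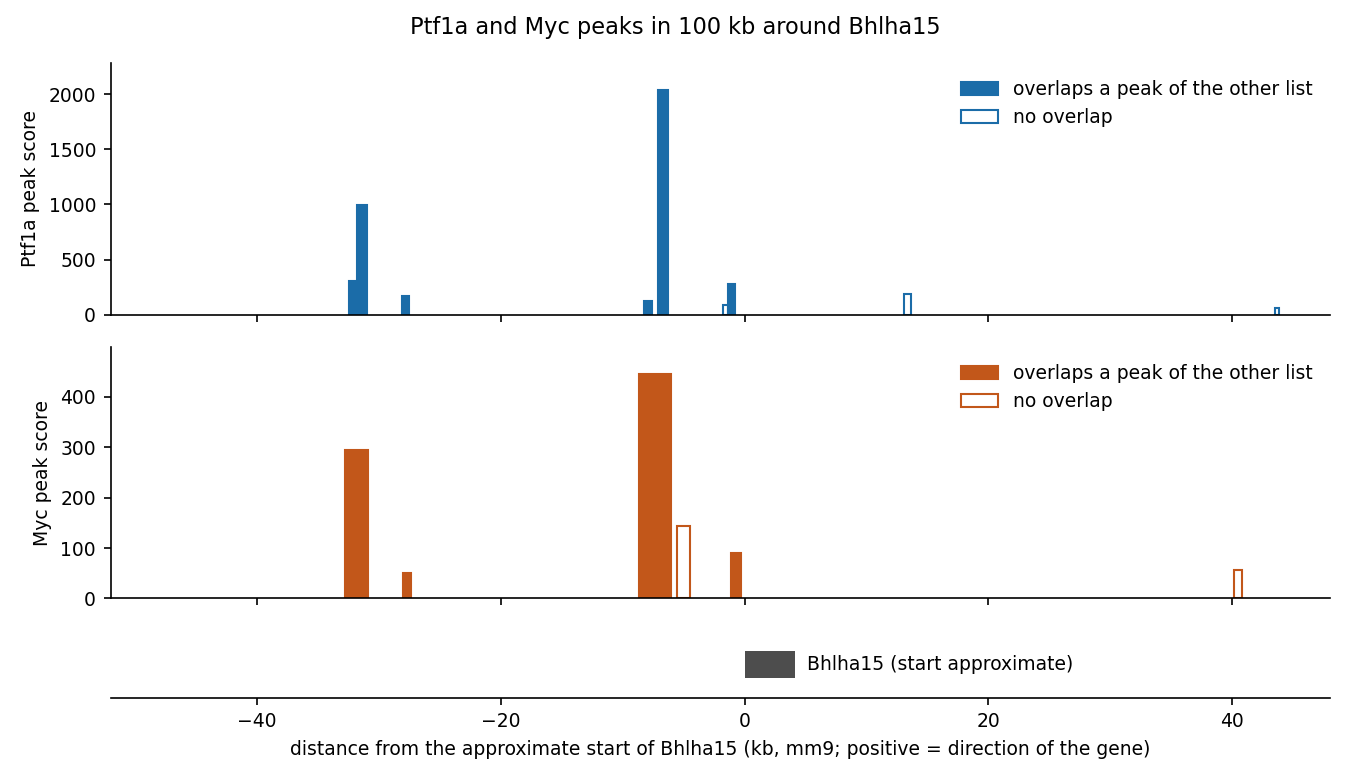
Peaks of the Ptf1a list (upper panel) and of the Myc list (middle panel) in the 100 kb around Bhlha15, drawn to scale by distance from the approximate start of the gene in kb, with peak score as height. Filled bars overlap a peak of the other list and open bars do not, and the grey bar is Bhlha15 with its length of 4156 bp. The highest bar of both panels stands about 7 kb before the gene.

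The strongest site of the locus was the same place in both lists. The Ptf1a peak at 144944872 to 144945732, about 7 kb before the start, had a score of 2039.95 and a width of 861 bp. It ranked 71 in its list, so that 0.403% of all Ptf1a peaks scored as high or higher. By width it ranked 877, with 5.00% as wide or wider. The Myc peak at 144943354 to 144945961 had a score of 445.41 and ranked 18 in its list, with 0.329% of Myc peaks as high or higher. At 2608 bp it was the 7th widest of all 5464 Myc peaks. Among the 71 Ptf1a peaks that scored as high or higher, 33 (46.5%) overlapped a Myc peak, against 13.4% of all Ptf1a peaks. Among the 18 Myc peaks that scored as high or higher, 5 (27.8%) overlapped a Ptf1a peak, against 41.4% of all Myc peaks.

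This Myc peak held more than 1 Ptf1a peak. Besides the strongest, a weaker Ptf1a peak lay at 144943761 to 144944416, with a score of 119.72 and 455 bp from its neighbour. Both lay wholly inside the Myc peak. Their midpoints were 569 bp before and 644.5 bp after that of the Myc peak, so the centre of the Myc peak fell between them. The Ptf1a score was many times higher on the side facing the gene.

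A site of the same layout lay in the far group. The Myc peak at 144919261 to 144921128 had a score of 294.54 (rank 78) and a width of 1868 bp. It held wholly the Ptf1a peak at 144919549 to 144920113, with a score of 305.1, and the Ptf1a peak at 144920230 to 144921048, with a score of 991.12 (rank 701). These stood 116 bp apart, with midpoints 363.5 bp before and 444.5 bp after that of the Myc peak. Again the higher Ptf1a score was on the side facing the gene, and the centre of the Myc peak fell between the Ptf1a peaks.

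Myc peaks that overlapped more than 1 Ptf1a peak were uncommon. Of the 5464 Myc peaks 105, or 1.92%, overlapped 2 or more, and 2 of the 6 Myc peaks at Bhlha15 were among them. This count asks only for overlap. Whether the Ptf1a peaks lay wholly inside, or on both sides of the centre, was not counted over the list. The comparison was chosen after the layout was seen. Myc peaks were called wider, with a list median of 834 bp against 515 bp for Ptf1a. How far the layout depends on these widths was not tested. The median width of the 105 was 1081 bp, against 854 bp for Myc peaks with 1 Ptf1a peak and 817 bp for those with none. By width the peak 7 kb before the gene was 2nd of the 105 and the far one 8th. By score they were 2nd and 7th. Cut into windows of 100 kb, the genome had 101 windows with such a Myc peak, and 4 of them, the Bhlha15 window included, held 2.

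**Figure D2:**
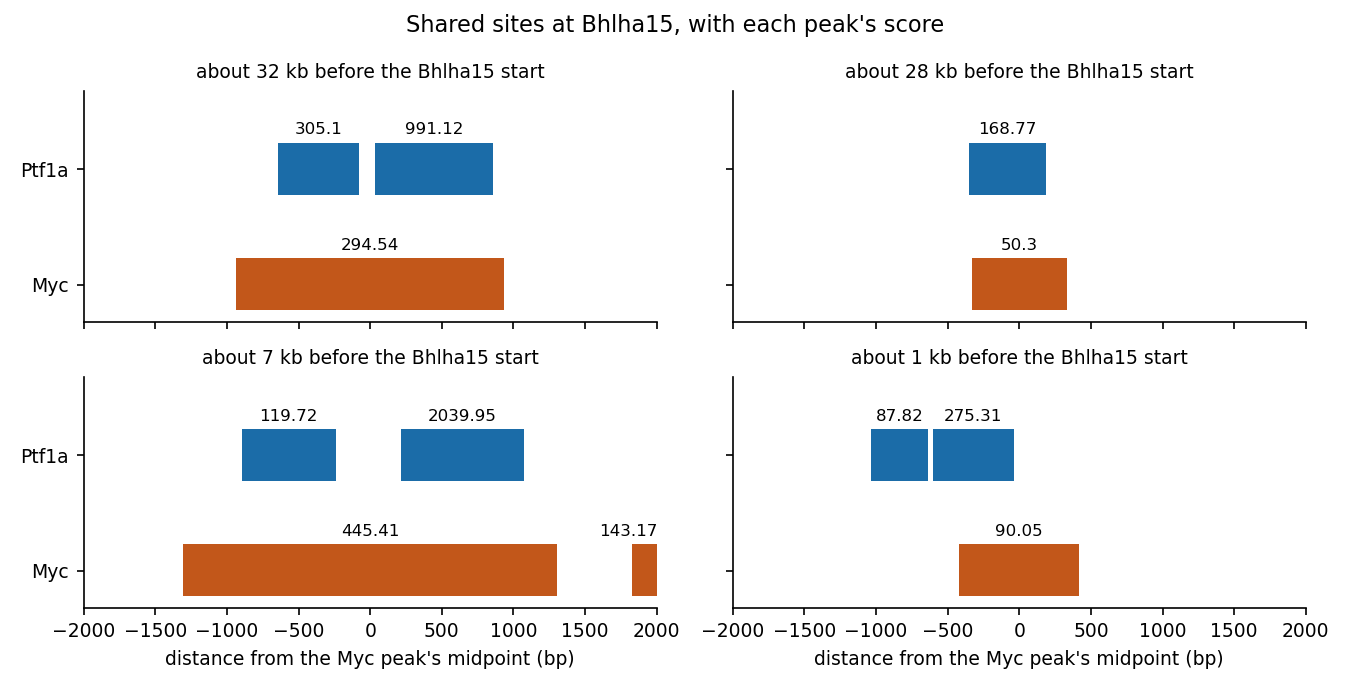
The 4 places at Bhlha15 where the lists overlap, each drawn in bp from the midpoint of the Myc peak, with Ptf1a peaks in the upper row and Myc peaks in the lower row of each panel and each peak's score above its bar. At 32 and 7 kb before the gene the Myc peak holds a Ptf1a peak on each side of its centre. At 1 kb before the gene the peaks overlap only in part.

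The peaks nearest to Bhlha15 were of moderate score. About 1 kb before the start the Ptf1a peak at 144950677 to 144951242 had a score of 275.31 and overlapped the Myc peak at 144950865 to 144951699, with a score of 90.05, by 378 bp. The overlap was 66.8% of the Ptf1a peak and 45.3% of the Myc peak. The Myc midpoint lay 322.5 bp closer to the gene than the Ptf1a midpoint. The Ptf1a peak at 144950244 to 144950646, with a score of 87.82, stood 30 bp before its stronger neighbour and overlapped no Myc peak, the nearest being 218 bp away. No peak of either list touched the 4156 bp that follow the approximate start, a stretch as long as Bhlha15, and the imprecision of the start leaves about 1 kb uncertain at either end.

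A pair of peaks of plain width made up the remaining shared site. At 28 kb before the start the Ptf1a peak at 144923930 to 144924472 (score 168.77) lay over the Myc peak at 144923951 to 144924615 with 96.1% of its width. Their midpoints were 82 bp apart, the closest of the 6 overlapping pairs at the locus. The Myc score of 50.3 was among the lowest of its list, with 99.2% of Myc peaks as high or higher. The site is therefore close to the lower end of the Myc list.

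In all, 6 of the 9 Ptf1a peaks at Bhlha15 overlapped a Myc peak by at least 1 bp, where 13.4% of all Ptf1a peaks did. Of the 6 Myc peaks 4 overlapped a Ptf1a peak, where 41.4% of all Myc peaks did. Since the overlaps were known when the locus was chosen, these shares carry no evidence beyond the description. In bases, 3801 of the 5349 bp under Ptf1a peaks (71.1%) were also under a Myc peak, and these were 50.0% of the 7605 bp under Myc peaks. Over the whole lists the shares of bases were 13.6% and 27.1%.

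None of the 5 peaks found in 1 list only was among the highest of its list. Of the Ptf1a peaks, besides the weak one beside the gene, that at 144965092 to 144965668, 13 kb after the start, had a score of 184.92, and that at 144995502 to 144995860, 44 kb after it, had 62.95. The former was 13392 bp from any Myc peak. Of the Myc peaks, that at 144946488 to 144947515, 5 kb before the start, had a score of 143.17, with 13.0% of Myc peaks as high or higher, and stood 755 bp after the strongest Ptf1a peak, between the near sites. The Myc peak at 144992173 to 144992773, 40 kb after the start, had a score of 55.94 and was 2728 bp from the nearest Ptf1a peak.

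Scores of shared and unshared peaks at the locus overlapped. The 6 shared Ptf1a peaks ran from 119.72 to 2039.95 and the 3 unshared ones from 62.95 to 184.92. The 4 shared Myc peaks ran from 50.3 to 445.41, and the 2 unshared ones, at 55.94 and 143.17, lay within that range. Of the 9 Ptf1a peaks 7 scored 100 or more, a level reached by 56.6% of that list, and 3 of the 6 Myc peaks did, a level reached by 28.7% of that list.

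**Figure D3:**
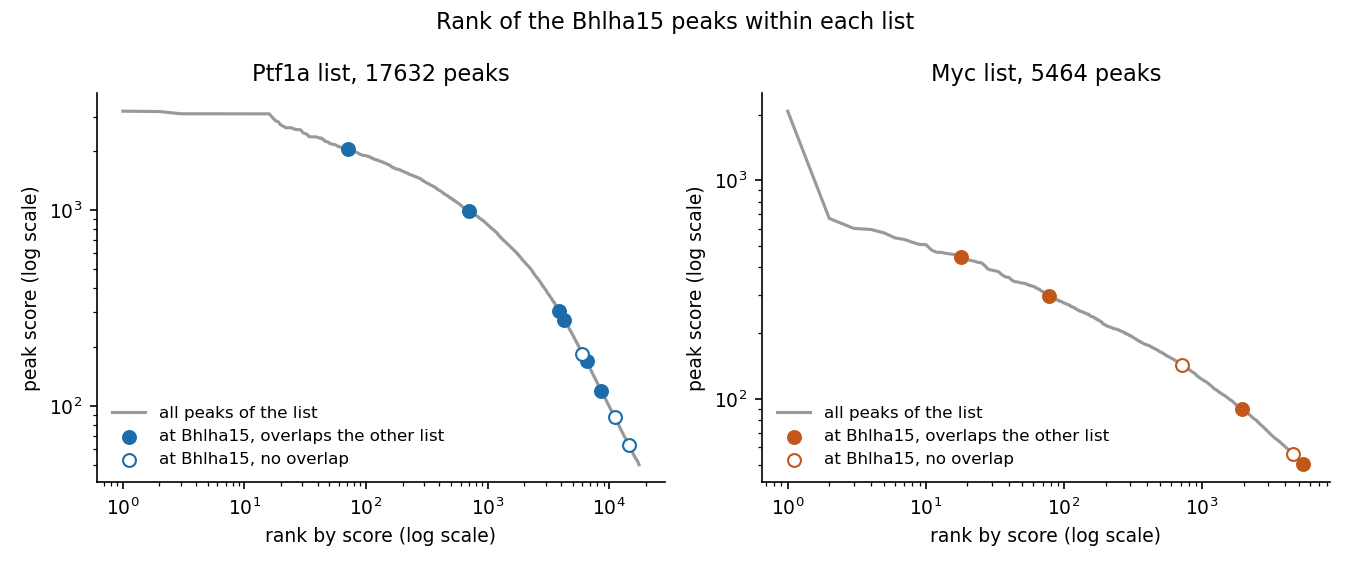
Score against rank by score, both on log scales, for all peaks of the Ptf1a list (left) and the Myc list (right), with the peaks at Bhlha15 as circles, filled where they overlap the other list. The members span both lists, from ranks 71 and 18 down to ranks 14528 and 5419.

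Ptf1a peaks at Bhlha15 often stood side by side. Of the 9, 6 had another Ptf1a peak within 500 bp, at gaps of 116, 455 and 30 bp, where 9.60% of all Ptf1a peaks had one. None of the 6 Myc peaks had a Myc neighbour that close, where 5.84% of all Myc peaks had one. With only 6 Myc peaks, a count of none is close to that share of the list. The closest Myc neighbours stood 526 bp apart, just past the limit, so the Myc count also depends on the limit. The limit of 500 bp was applied to gaps after the positions were seen.

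The number of peaks in the window was high for both factors. Among 8344 windows of 100 kb that hold a peak of either list, counted on a fixed grid of which this window is 1, 117 (1.40%) had 9 or more Ptf1a peaks and 18 (0.216%) had 6 or more Myc peaks, this window included. The median window had 1 Ptf1a peak and no Myc peak. Of the 8343 other windows 8 had at least as many peaks of both lists, with up to 17 Ptf1a and 9 Myc peaks. In those 8 the highest Myc score was between 92.89 and 207.06, below the 445.41 at Bhlha15. Between 2 and 8 of their Ptf1a peaks overlapped a Myc peak, and in 5 of the 8 windows as many did as at Bhlha15 or more.

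**Figure D4:**
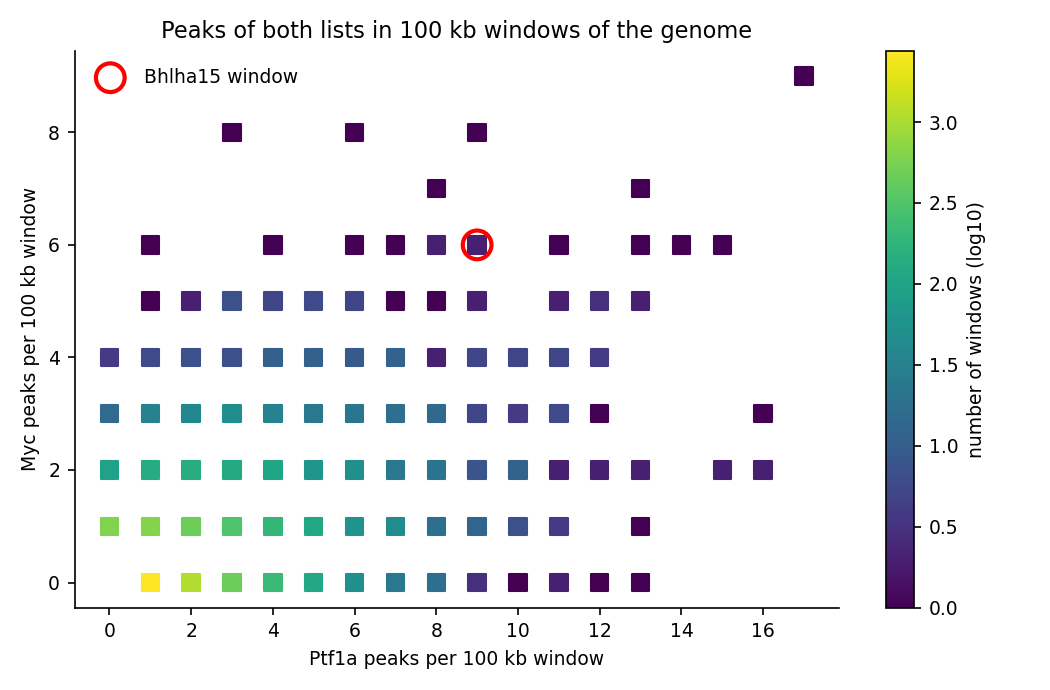
Number of Ptf1a peaks (x axis) and Myc peaks (y axis) in each 100 kb window with a peak of either list, with colour giving the number of windows at each combination on a log10 scale. The red circle marks the window of Bhlha15, with 9 Ptf1a and 6 Myc peaks, above and to the right of most windows.

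By the highest score in each list, 1 other window matched or exceeded that of Bhlha15 in both. It lay on chromosome 17 from 39900000 to 40000000, and held the highest Myc score of the list (2073.91) with only 2 Ptf1a peaks and 1 Myc peak. No other window on this grid matched Bhlha15 in both counts and both highest scores. These limits are the window's own values, known when it was chosen, so the absence of a match is a description only.

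The windows most like that of Bhlha15 were found by the distance over both counts and both highest scores on the log2(value + 1) scale, where the median of the 8343 other windows was 9.78. The nearest, at a distance of 0.76, was on chromosome 18 from 39500000 to 39600000. It held 12 Ptf1a and 5 Myc peaks, with highest scores of 1379.28 and 369, and 6 of its Ptf1a peaks overlapped a Myc peak, as many as at Bhlha15. The next, on chromosome 13 from 12600000 and on chromosome 5 from 54000000, were both at 0.80 and held 9 and 7 Ptf1a peaks, of which 2 in each overlapped a Myc peak. The last, on chromosome 19 from 58800000 (0.95) and on chromosome 3 from 100200000 (0.96), held 11 Ptf1a peaks each, of which 1 and 3 overlapped. Of the Myc peaks in the nearest window 5 of 5 overlapped a Ptf1a peak, against 4 of 6 at Bhlha15.

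At the edges of the window the nearest peaks left out were of both lists. Before it, a Ptf1a peak at 144887631 to 144888035 (score 234.3) and a Myc peak at 144882213 to 144882789 (score 52) did not overlap. After it, a Ptf1a peak at 145007559 to 145009440 (score 674.8) overlapped a Myc peak at 145007917 to 145009647 (score 208.73). Their midpoints lay 8.50 and 8.78 kb from the edge. Inside the window, the peak whose outer end came nearest to the far edge was the Ptf1a peak at 144995502 to 144995860 (score 62.95). At the near edge it was the Myc peak at 144919261 to 144921128 (score 294.54). That shared site beyond the far end is not counted at the locus.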

How the data were processed

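Per the labels' protocols, pancreas was fixed in 1% formaldehyde for 20 min and sheared to 300 to 500 bp. The c-Myc antibody was used at 10 μg. The submitters' processing notes name MACS 1.4.1, BWA 0.5.9-r16, FastQC 0.9.4 and CASAVA 1.8, and the build mm9. How these were set, which threshold a peak had to pass and how the inputs entered is not given in the sources. The lowest score was 50.01 in the Ptf1a list and 50.0 in the Myc list. The authors deposited 1 peak list per library, with position, name and a score per peak, and the starts in the deposited lists were moved by 1 so that positions count from 1.

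Computed here with Python 3.11.15, numpy 2.4.6, pandas 2.3.3 and matplotlib 3.10.9 were overlaps (at least 1 bp), ranks, gaps, chains of peaks at most 12.5 kb apart, and counts per 100 kb window on chromosomes 1 to 19 and X. A rank or share at or above a value includes ties. The code was tested on simulated data. All peaks of the locus are named, with the first outside each edge and the 5 windows nearest on the log2(value + 1) scale. The members, lists and rules were chosen with earlier results of these data known. No mm9 annotation was used here, so peaks are placed by distance only.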

Additional observations from a re-analysis of the deposited data

How the results depend on the processing

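Counts moved with the score limit, the chain gap and the definition of overlap. With a score of 100 or more the locus held 3 of its 6 Myc peaks, and with that limit in both lists 2 Myc peaks overlapped a Ptf1a peak instead of 4. The shared sites left were those 32 and 7 kb before the gene. The Ptf1a count was then 7. Any overlap with the window gave 9 and 6 peaks, as the midpoint did. With 50% of the narrower peak covered, 6 Ptf1a and 4 Myc peaks were shared, and with midpoints within 500 bp 4 and 3, because the wide Myc peak 7 kb before the gene has its midpoint over 500 bp from both of its Ptf1a peaks. Chains joined over 25 kb held 8 Ptf1a peaks with the strongest, against 4 with the gap used here and with 5 kb. The share of windows with 6 or more Myc peaks was 0.252% of 8325 with the grid moved by 50 kb. With the score limit the locus had 3 Myc peaks, and 0.448% of 5804 windows had 3 or more. By width the strongest Ptf1a peak stood in the top 5.00% and the strongest Myc peak in the top 0.128% of its list. No paired analysis was possible because neither factor has a second library.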

Other observations

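Peaks of both lists went on past the window, on the side after Bhlha15. The shared site whose Ptf1a midpoint lay 8.50 kb beyond the edge was wide in both lists. It had 1882 bp in the Ptf1a list and 1731 bp in the Myc list. The next peaks after it, at 145015249 to 145015625 in the Ptf1a list (score 54.68) and at 145016611 to 145017344 in the Myc list (score 68.22), did not overlap a peak of the other list.

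The 8 other windows with at least as many peaks of both lists lay on chromosomes 8, 9, 10, 11 and 18. The fullest, on chromosome 11 from 94000000 to 94100000, held 17 Ptf1a and 9 Myc peaks, of which 7 and 6 overlapped the other list. That on chromosome 8 from 114200000 to 114300000 held 15 and 6, of which 6 and 6 overlapped, and its highest Ptf1a score was 3100. By contrast, the window on chromosome 11 from 98600000 to 98700000 held 9 and 8 peaks, of which 2 and 2 overlapped.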
